A study of Mus musculus with 3 samples.

Results

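The IFIT and IFITM genes are small families of interferon-induced antiviral genes, and 6 of them were followed here in 4T1 cells, a mouse mammary carcinoma cell line. The members were Ifit1, Ifit2 and Ifit3 and Ifitm1, Ifitm2 and Ifitm3. Earlier results of these data were known when the members and the gene lists below were chosen. The members were taken by name, as every probe set whose platform annotation gives one of these genes or its synonym as the only gene symbol. This gave 6 probe sets, 1 for each gene, of 45037 probe sets in all, and 6 genes of 18193 named genes. The study measured RNA on 3 Affymetrix Mouse Genome 430 2.0 arrays, 1 for each culture condition. In the co-culture condition, 4T1 cells grew in contact with MSCs for 1 week and were afterwards separated from them. In the conditioned-medium condition, 4T1 cells were grown for 1 week with medium conditioned by MSCs. In the regular-medium condition, 4T1 cells received regular medium, and their time in culture is not stated. The labels give RPMI-1640 with fetal bovine serum as the growth medium of 4T1 cells in general. MSC is usually read as mesenchymal stem or stromal cell, and neither their source nor the method of separation is stated in the labels.

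Interferons released by infected or stimulated cells bind surface receptors, and JAK kinases then pass the signal on to transcription factors. A complex that holds IRF9 binds the interferon-stimulated response element in the promoters of target genes, and the gamma-activated sequence is the element known for the response to interferon gamma. IFIT proteins are cytosolic tetratricopeptide proteins that bind foreign RNA ends and hinder translation, and they are usually barely made until interferon arrives. IFITM proteins sit in cell and endosomal membranes and hinder the fusion of enveloped viruses, and several cell types make some of them without interferon.

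Each array gave 1 MAS5 signal, a linear brightness value, for every probe set. Before log2 was taken, any signal under 42.4, the 40th percentile over the 3 arrays pooled, was raised to that value, which is called the floor. A gene counts as measured in a comparison when its brighter signal reached 149.3, the 60th percentile of the same pool, and as higher or lower when its signals also differed at least 2-fold. Median signals of the arrays were 72.5 in co-culture, 71.6 in conditioned medium and 79.8 in regular medium. With 1 array for each condition there is no replicate error, so no test was run and every difference below is a difference between 2 arrays. RNA was taken from whole cell populations, so the number of cells that express a gene and the RNA per cell cannot be told apart. The epithelial markers, which check the 4T1 label, were measured for 12 of 12 genes on the arrays, none at the floor. Against regular medium none of the 12 was higher in co-culture and 1 was lower, Krt14, a basal keratin, with 439.1 in co-culture, 1263 in conditioned medium and 1218 in regular medium. The next largest log2 differences, 0.87 for Itgb4, 0.81 for Cldn4 and 0.68 for Cdh1, did not meet the size rule.

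The promoter windows of the members are shown first, and whether their motifs bear on the differences given below was not tested. Each window runs from 250 bases before to 50 bases after an annotated start site, in RefSeq's annotation of GRCm38.p6, and is printed 5′ to 3′ on the strand of the gene. Capitals mark every match to the core of the interferon-stimulated response element, searched as GAAANNGAAA on both strands, where N is any base. Ifit1 (chr19:34640639-34640938, plus strand) and Ifit3 (chr19:34583279-34583578, plus strand) lie in the same cluster on chromosome 19, and Ifitm3 (chr7:141010695-141010994, minus strand) and Ifitm2 (chr7:140955912-140956211, minus strand) lie in a cluster on chromosome 7. Ifit2 (chr19:34550444-34550743, plus strand) is shown with the first of its 2 annotated windows.
Ifit1: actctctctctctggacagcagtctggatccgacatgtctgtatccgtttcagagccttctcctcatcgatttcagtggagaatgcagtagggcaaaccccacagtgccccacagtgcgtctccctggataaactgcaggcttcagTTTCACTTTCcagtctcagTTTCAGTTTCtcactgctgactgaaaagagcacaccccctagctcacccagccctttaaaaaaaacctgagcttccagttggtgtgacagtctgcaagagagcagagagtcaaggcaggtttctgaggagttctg
Ifit3: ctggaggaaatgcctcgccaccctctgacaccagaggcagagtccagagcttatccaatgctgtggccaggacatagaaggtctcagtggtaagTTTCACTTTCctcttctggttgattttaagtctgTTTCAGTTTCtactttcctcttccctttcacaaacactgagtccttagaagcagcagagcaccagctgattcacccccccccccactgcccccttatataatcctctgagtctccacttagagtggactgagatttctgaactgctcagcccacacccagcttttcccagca
Ifitm3: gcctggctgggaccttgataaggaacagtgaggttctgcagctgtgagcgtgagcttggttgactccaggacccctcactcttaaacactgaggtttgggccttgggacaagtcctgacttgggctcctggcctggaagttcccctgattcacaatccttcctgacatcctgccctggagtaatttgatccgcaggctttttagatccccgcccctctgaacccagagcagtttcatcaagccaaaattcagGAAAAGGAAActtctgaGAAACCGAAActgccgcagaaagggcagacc
Ifitm2: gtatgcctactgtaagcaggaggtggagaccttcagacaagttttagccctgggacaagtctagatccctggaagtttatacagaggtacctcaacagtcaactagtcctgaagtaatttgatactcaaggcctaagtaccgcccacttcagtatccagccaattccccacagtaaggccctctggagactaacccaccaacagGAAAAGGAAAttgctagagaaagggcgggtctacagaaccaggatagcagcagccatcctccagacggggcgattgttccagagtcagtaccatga
Ifit2: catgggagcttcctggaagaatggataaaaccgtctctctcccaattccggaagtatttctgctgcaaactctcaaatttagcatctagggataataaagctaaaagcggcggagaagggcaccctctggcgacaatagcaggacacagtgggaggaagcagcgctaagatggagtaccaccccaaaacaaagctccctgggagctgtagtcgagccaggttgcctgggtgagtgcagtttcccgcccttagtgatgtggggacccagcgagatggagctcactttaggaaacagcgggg

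The windows of Ifit1, Ifit3 and Ifitm3 each held 2 matches and that of Ifitm2 held 1. In Ifit1 the matches spanned bases -104 to -95 and -85 to -76 from the start site, and in Ifit3 they spanned -156 to -147 and -122 to -113, all on the strand opposite to the gene. In Ifitm2 the match spanned -46 to -37, and in Ifitm3 the matches lay past the start site, at bases 3 to 12 and 20 to 29, all on the strand of the gene. Neither window of Ifit2 (chr19:34550444-34550743, plus strand, and chr19:34550838-34551137, plus strand) and not the window of Ifitm1 (chr7:140967826-140968125, plus strand) held these letters, which says nothing of sequence outside them. Over all genes with a window, 3.99% of 27025 held the motif in at least 1 window, and among windows the share was 3.44% of 32851. The core of the gamma-activated sequence, searched as TTCNNNGAA, which reads the same on both strands, was found in the first Ifit2 window at -241 to -233 and in the Ifitm3 window at 14 to 22, where it overlaps the second of the response element matches. It was present for 9.55% of the 27025 genes. A match is a description of letters and not evidence that a factor bound there.

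**Figure D1:**
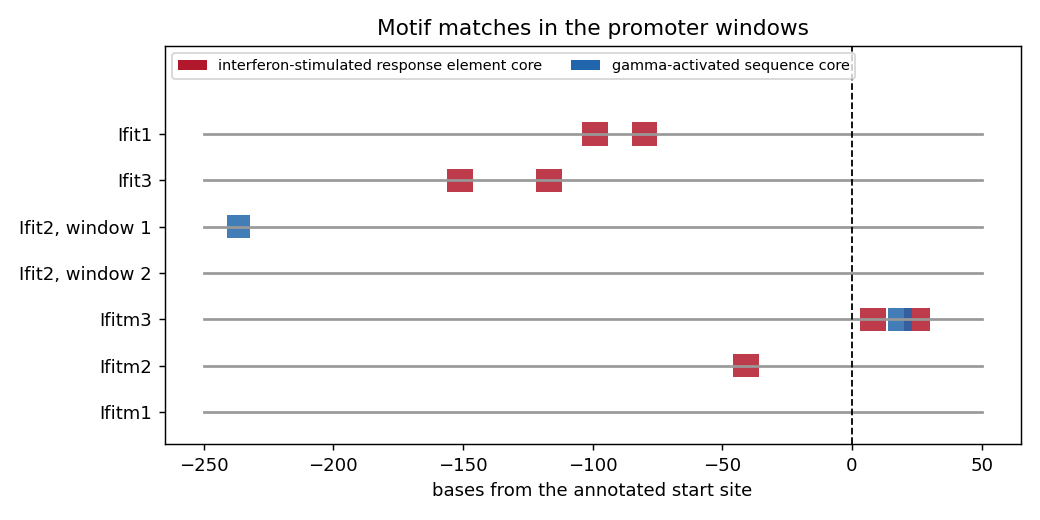
Positions of motif matches in the 7 promoter windows of the 6 genes, with bases from the annotated start site on the horizontal axis and 1 row for each window. Red boxes are matches to the core of the interferon-stimulated response element and blue boxes to that of the gamma-activated sequence. Ifit1, Ifit3 and Ifitm3 each carry 2 red boxes, and Ifit1 and Ifit3 carry theirs before the start site while Ifitm3 carries its own after it.

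Contact co-culture was set against regular medium to see how the families differed after a week with MSCs. Of the 6 members, 3 were higher in co-culture, namely Ifit1, Ifit3 and Ifitm3, and none was lower. Ifit2 and Ifitm2 were measured and differed by less than 2-fold, and Ifitm1 stayed below the floor on every array. Among all 9393 genes measured in this comparison, 5.81% were higher and 2.76% were lower. The median log2 difference was 0.98 over the 6 members, with Ifitm1, which was not measured, entered at 0 because both of its signals were raised to the floor. Over the 5 measured members it was 1.51, beside 0.07 for all measured genes, whose central 95% ran from -1.03 to 1.41.

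Ifit1 (probe set 1450783_at), which binds RNA ends that lack the methylation of host caps, had a signal of 1423 in co-culture, 85.7 in conditioned medium and 84.6 in regular medium. The co-culture signal stood far above the other arrays, and the conditioned-medium signal was 1.01 times that of regular medium. The log2 difference of co-culture from regular medium was 4.07, a 16.8-fold higher signal, and Ifit1 was in rank 6 from the top among the 9393 measured genes.

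Ifit3 (1449025_at), which binds Ifit1 and stabilises it in human cells, had 599.6 in co-culture, 54.9 in conditioned medium and 63.0 in regular medium. As with Ifit1, co-culture alone was above the 149.3 threshold. The log2 difference of co-culture from regular medium was 3.25, a 9.52-fold higher signal, at rank 18. Both Ifit1 and Ifit3 were close to the floor in the media without MSCs, so the size of these folds depends on signals near the low end of the scale. With the floor raised to the 60th percentile, the log2 differences were 3.25 for Ifit1 and 2.01 for Ifit3.

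Ifit2 (1418293_at), the family member known in mice for protecting neurons from viral infection, had 749.5 in co-culture, 597.8 in conditioned medium and 548.2 in regular medium. Unlike the other IFIT genes it already had a signal above 149.3 in regular medium, and its arrays lay close together. The log2 difference of co-culture from regular medium was 0.45, a 1.37-fold higher signal at percentile 76.8 of all measured genes, and did not meet the size rule. Within this family the log2 differences therefore ran from 0.45 to 4.07.

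Ifitm3 (1423754_at), which restricts influenza virus in mice and human cells from endosomal membranes, had 14604 in co-culture, 4849 in conditioned medium and 5113 in regular medium. It was bright on all arrays, and co-culture stood above the others. The log2 difference of co-culture from regular medium was 1.51, a 2.86-fold higher signal, at rank 191 and percentile 98.0.

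Ifitm2 (1417460_at), a closely related neighbour of Ifitm3, had 3196 in co-culture, 4190 in conditioned medium and 4269 in regular medium. Co-culture was the lowest array, in the opposite direction to Ifitm3. The log2 difference of co-culture from regular medium was -0.42, a 1.34-fold lower signal at percentile 16.0, and did not meet the size rule. Ifitm1 (1424254_at), the member that in human cells acts mainly at the cell surface, had 22.4 in co-culture, 1.5 in conditioned medium and 24.4 in regular medium. All of these lay below the floor of 42.4, so no fold is given and Ifitm1 has no order over the arrays.

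**Figure D2:**
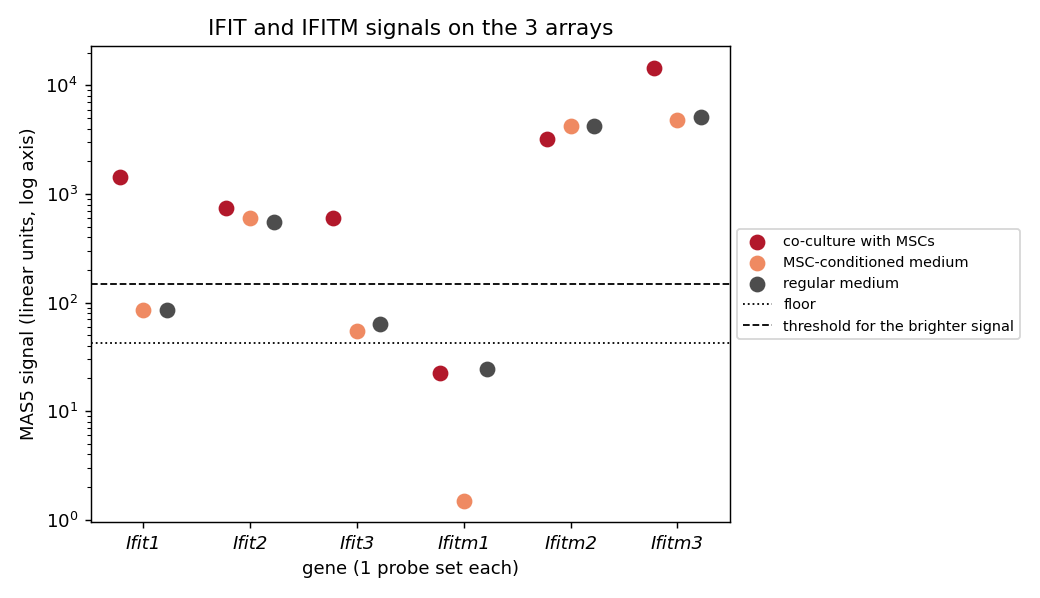
MAS5 signal of each member on a log axis, with 1 point for each array and the genes along the horizontal axis. Ifit1, Ifit3 and Ifitm3 have their co-culture point at 1423, 599.6 and 14604, above the points for conditioned and regular medium, while the points of Ifit2 and Ifitm2 lie close together and those of Ifitm1 lie below the dotted floor of 42.4.

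MSC-conditioned medium was set against regular medium to see whether secreted factors alone went with a difference in these genes. No member was higher or lower, and 3 of the 6 were measured, namely Ifit2, Ifitm2 and Ifitm3. Their log2 differences were 0.13 for Ifit2, -0.03 for Ifitm2 and -0.08 for Ifitm3. Ifit1 and Ifit3 were below 149.3 on both of these arrays, with differences of 0.02 and -0.20. Over all 9152 genes measured in this comparison, 0.109% were higher and 0.306% lower, so a count of 0 among 3 measured members is close to the background. The central 95% of all differences ran from -0.47 to 0.40, and the differences of these 5 members lay inside it. The sign of the differences of Ifit3, Ifitm2 and Ifitm3 turned under at least 1 other scaling, so no direction is given for them.

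**Figure D3:**
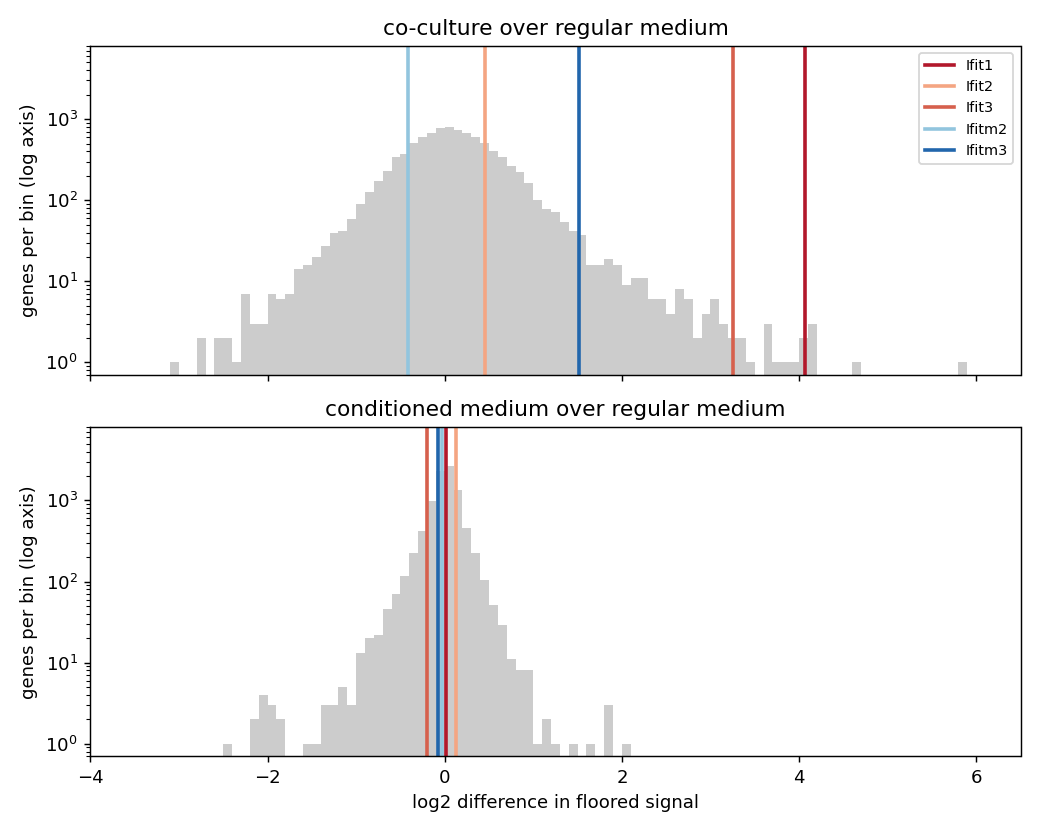
Number of genes (log axis) by log2 difference in bins of 0.1, for co-culture over regular medium above and conditioned medium over regular medium below, with vertical lines at the members above the floor. In the upper panel Ifit1 and Ifit3 stand at 4.07 and 3.25 in the far right tail and Ifitm3 at 1.51, while in the lower panel all 5 lines lie between -0.20 and 0.13, with Ifit1 and Ifit3 drawn although both were below 149.3 there.

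Co-culture was also set against conditioned medium, to place contact next to soluble factors. The labels describe a separation step for the co-culture cells alone, so contact and separation cannot be told apart. Again 3 members were higher and none lower, beside 5.83% higher and 2.6% lower among the 9350 genes measured. The log2 differences were 4.05 for Ifit1, 3.45 for Ifit3, 1.59 for Ifitm3, 0.33 for Ifit2 and -0.39 for Ifitm2. These values share the co-culture array with the comparison against regular medium, so they are not a second measurement of the co-culture condition.

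Markers of MSCs and other cells were read on the same arrays. Of 18 MSC and fibroblast markers 17 were analysed and 8 were measured on at least 1 array. The summed signal of the 17 was 11383 in co-culture, 7448 in conditioned medium and 7174 in regular medium. Most of each sum came from Vcam1, Nt5e, Eng and Postn, named after their values were seen and already bright in regular medium. Their signals there were 2660.5, 2156.7, 937.8 and 765.6, and in co-culture 3867.9, 3185.9, 1476.5 and 1802.6. Over the 8 measured, the median log2 difference of co-culture from regular medium was 0.77 and 7 were positive. The median was 0.07 for all measured genes and 0.46 for the 12 epithelial markers, of which 11 were positive. Bgn was at least 4.28-fold higher and Postn 2.35-fold higher in co-culture than in regular medium, and none of the 8 was lower. Pdgfra and Col1a2 differed by log2 values of 0.89 and 0.89, short of the rule. In co-culture 6 of the 17 were at or below the floor, namely Pdgfrb, Thy1, Col1a1, Dcn, Mgp and Prrx1, named after their values were seen, with signals from 6.7 to 41.9. The leukocyte and macrophage markers summed to 879.1 in co-culture, 769.7 in conditioned medium and 838.8 in regular medium, and 3 of the 9 were measured, none of them higher or lower. Csf1r had 134.2 in co-culture and 186.9 in regular medium, a log2 difference of -0.48, and Cd68 and Cd14 differed by 0.44 and 0.27. In co-culture 5 of the 9 were at or below the floor, and the pan-leukocyte marker Ptprc, picked after its values were seen, was below it on every array. The endothelial markers summed to 398.0 in co-culture, 352.4 in conditioned medium and 444.6 in regular medium, and Egfl7, the only measured one of the 6, differed by 0.01. The part of MSC RNA in the IFIT and IFITM differences was not tested.

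Other interferon-induced effectors, a list also chosen with earlier results of these data known, were set beside the members. Of 23 measured effectors, 21 were higher in co-culture than in regular medium and none was lower, with a median log2 difference of 2.26. Among all 9393 genes measured in this comparison, 5.81% were higher and 2.76% lower. Mx2, Oas2, Oas3, Oasl2, Dhx58, Cmpk2 and Zbp1 were below 149.3 in both media and counted as measured only through co-culture. These were named after their values were seen, and each was among the 21. Oasl2, of the oligoadenylate synthetase family, differed by 4.19, and Rtp4, an interferon-induced chaperone, by 3.88. Oas3, which makes the oligoadenylates that activate RNase L, differed by at least 3.67 from a signal at the floor, and Xaf1, a promoter of cell death, by 3.65. That median includes 4 effectors whose regular-medium signal was at the floor and whose difference is a lower bound. Ifit1 and Ifit3 lay above it and Ifitm3 below it. Ifit2 stood beside the effectors that did not meet the rule, named after their values were seen: Isg20, an exonuclease, at 0.17 and Samhd1, which hydrolyses nucleotides, at -0.10. In conditioned medium 16 effectors were measured and none was higher or lower than in regular medium, with a median of 0.00.

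Of 14 measured genes of interferon signalling, 5 were higher in co-culture than in regular medium and none was lower. Among all genes measured in this comparison, 5.81% were higher and 2.76% lower. The median log2 difference was 0.43 over the 15 signalling genes measured on any array. Usp18, which restrains the receptor, differed by 5.88, and Irf7, which amplifies interferon production, by 3.28. Irf9, a DNA-binding factor of the interferon response, differed by 2.73 and Irf1, a factor that binds similar elements, by 1.37. The receptor genes Ifnar1 and Ifnar2, which fall outside the naming rule and were picked after their values were seen, differed by 0.32 and 0.75. Without probe sets whose names end in _x_at, _s_at or _a_at, 2 signalling genes were higher in co-culture in place of 5. Irf1, Irf7 and Irf9 have only an _a_at probe set, so that setting removed them from the list. In conditioned medium none of 13 measured signalling genes met the rule, close to the background of 0.109% higher and 0.306% lower. The median difference was 0.00 over the 15 genes. Irf7 and Usp18, both below 149.3 in conditioned and regular medium, differed by -0.81 and 0.35.

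**Figure D4:**
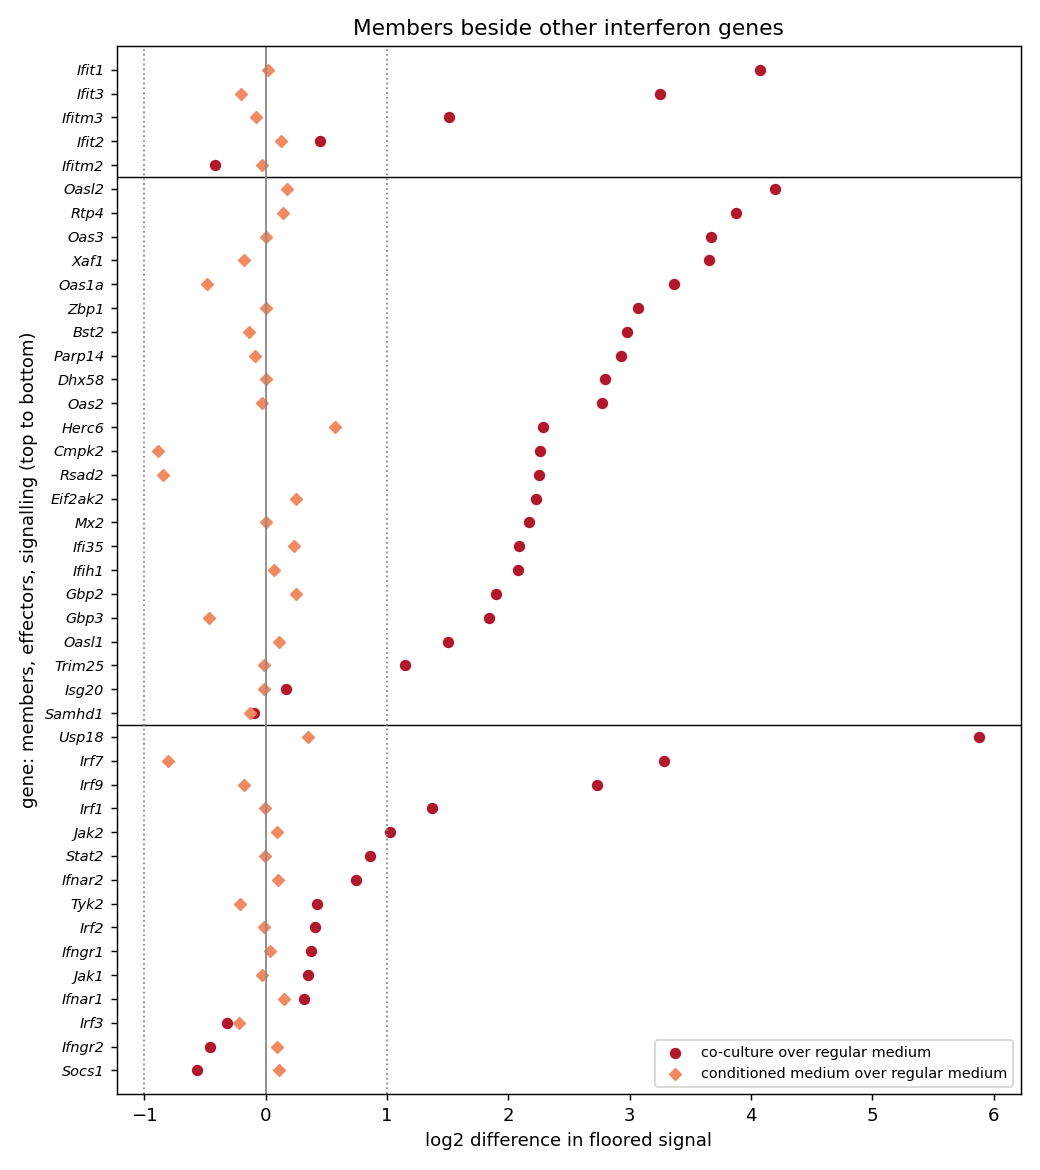
Log2 difference from regular medium for the 5 members above the floor (top block), 23 other interferon effectors (middle block) and 15 interferon signalling genes (bottom block), with circles for co-culture and diamonds for conditioned medium. Dotted lines mark 2-fold in each direction, and Oas3, Zbp1, Dhx58 and Mx2 are lower bounds in co-culture. In co-culture Ifit1 at 4.07 is near Oasl2 at 4.19, whereas Ifit2 at 0.45 lies between the dotted lines, and the diamonds of every gene shown lie between those lines.

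Genes whose products work with the members did not meet the size rule. Among all 9393 genes measured in co-culture over regular medium, 5.81% were higher and 2.76% lower. Lists of 18 and 9 genes without a call, as below, are close to that background. IFIT proteins act on capped RNA and on the translation factor eIF3, and of 18 measured genes for cap methylation, cap binding and eIF3 none was higher or lower in co-culture than in regular medium, with a median log2 difference of -0.13. Rngtt, the capping enzyme, differed by -0.99, Rnmt, the cap guanine methyltransferase, by -0.66, Eif4e, the cap-binding factor, by -0.49 and the eIF3 subunit gene Eif3m by -0.47. Of 9 genes whose products bind or modify IFITM proteins, again none met the rule, with a median of -0.11. Cd9, a tetraspanin, differed by -0.72, Zdhhc20, which attaches palmitate to Ifitm3 in human cells, by -0.41, Setd7, a lysine methyltransferase, by 0.26 and Zmpste24, a membrane protease, by -0.17. Conditioned medium gave medians of 0.00 for the capping and eIF3 genes and 0.02 for the IFITM partners.

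Further genes of both families were dim on all arrays. The gene list held 8 of them, of which 6 were analysed, and none reached 149.3 on any array. Ifit1bl2, a gene next to Ifit1, had signals of 64.8 in co-culture, 27.7 in conditioned medium and 36.8 in regular medium on its brighter probe set, and at most 16.6 on its other probe set. Signals of Ifit1bl1, Ifitm5, a gene of bone-forming cells, Ifitm6, Ifitm7 and Ifitm10 ranged from 4.0 to 59.2 over the arrays. The promoter window of Ifit1bl2 (chr19:34640694-34640993, minus strand) overlaps that of Ifit1 by 245 bases, so both genes face away from the same stretch and the same 2 response element matches lie in both windows. Ifit1 was measured at 1423 in co-culture and Ifit1bl2 was not measured. The window of Ifit3b (chr19:34607707-34608006, plus strand), a near copy of Ifit3, matched that of Ifit3 at 258 of 260 aligned bases and held the same number of response element matches. Ifit3b was not analysed here, and whether the Ifit3 probe set also reads Ifit3b transcripts was not tested. The windows of Ifitm2 and Ifitm3 matched at 142 of 220 aligned bases, or 64.5%. Counts of aligned bases leave out gaps and unaligned ends. By the same measure Ifit1 and Ifit3 matched at 70.7% of 181 bases. Ifitm1 matched Ifitm2 at 68.9% of 74 and Ifitm3 at 65.4% of 26, so 64.5% does not set its pair apart.

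For each measured member the 3 genes with the most similar pattern were found among 9215 measured genes, as the smallest Euclidean distance over the log2 differences of co-culture and conditioned medium from regular medium. The pattern rests on 3 arrays and gives no measure of shared control. Nearest to Ifit1 were Txnip, an arrestin-domain protein, at a distance of 0.06, Oasl2 at 0.20 and Rtp4 at 0.23. Nearest to Ifit3 were Niban1, a stress-responsive gene, at 0.18, Fas, a death receptor, at 0.26 and Zbp1, a nucleic acid sensor, at 0.27. Ifitm3 was nearest to Tor3a, an interferon-induced ATPase family gene, at 0.01, Paqr3 at 0.02 and Rnf185, a ubiquitin ligase, at 0.05. Ifit2 was nearest to Agap3, Usp4 and Wdr20 and Ifitm2 to Phf19, Kat5 and Cdk12, each at up to 0.01.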

How the data were processed

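The authors deposited linear intensity values from Affymetrix Mouse Genome 430 2.0 arrays, which the submitters' processing notes credit to MAS5. No version or target level is stated there. They were used unchanged, for 3 arrays grouped by the labels. Of 45037 probe sets, 34945 had 1 gene symbol, 932 several and 9160 none in the platform annotation, and 34741 symbols were updated by gene ID. Where a gene had several probe sets, that of highest mean signal was used, and each member had 1. Signals were floored at 42.4, and a call needed a 2-fold difference and a brighter signal of 149.3. The number of arrays limits the precision, and no test was run. Alternatives varied scaling, floor, signal filter, probe set and fold rule. The calling rule and motif search were tested on simulated data. Named genes were all members, the 4 largest differences of each functional list, the 3 nearest genes to each member and the 4 genes on either side of each cluster. Members and lists were chosen with earlier results of these data known. Promoter windows are RefSeq's, matched by symbol for 6 of 6 members. Scripts ran in Python 3.11.15 with pandas 2.3.3, NumPy 2.4.6 and Biopython 1.88, and figures were drawn with matplotlib 3.10.9.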

Additional observations from a re-analysis of the deposited data

How the results depend on the processing

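No paired analysis was possible because each condition has 1 array. The count of members higher in co-culture was 2 to 3 over all 10 alternatives, against either medium. Against regular medium it was 2 with the 3-fold rule, where Ifitm3 fell short, and with the signal filter at the 80th percentile, where Ifit3 fell short. Against conditioned medium it was 2 with that filter only. In conditioned medium the count was 0 under every alternative. The effectors higher in co-culture numbered 14 to 21 in either comparison. The signalling genes higher in co-culture than in regular medium, 5, became 2 without probe sets named _x_at, _s_at or _a_at and 3 with the 3-fold rule. Against conditioned medium they were 4, and became 1 without those probe sets and 8 with the 1.5-fold rule. Irf1, Irf7 and Irf9 have only an _a_at probe set, so leaving those out removed these genes and did not change their calls. The member median for conditioned medium over regular medium, -0.01, was 0.10 with median scaling. For co-culture over conditioned medium it was 0.96, and 1.31 with the floor at the 20th percentile, where Ifitm1 signals under 42.4 enter. The cause was not tested beyond what each rule itself changes. Median scaling put the median of all measured genes at 0.21 in place of 0.07 for co-culture over regular medium and at 0.17 in place of 0.01 for conditioned over regular medium. It moved the share of calls that were higher to 82.8% in place of 67.8%, and to 58.1% in place of 26.3%, which quantile normalization put at 37.5%. Over all genes, those higher in co-culture than in regular medium numbered 546, and 164 with the 3-fold rule and 1586 with the 1.5-fold rule.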

Other observations

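Genes that flank the clusters were read from RefSeq's gene order. Around the Ifit cluster, 5 of the 8 flanking genes were measured and 2 were higher in co-culture than in regular medium, both on the side of Ifit2. Among all genes measured in this comparison 5.81% were higher. Fas, a death receptor, had 365.3 in co-culture, 43.0 in conditioned medium and 43.7 in regular medium. Acta2, smooth muscle actin, had 278.3 in co-culture, 157.0 in conditioned medium and 42.4 in regular medium. Against regular medium it was at least 6.56-fold higher in co-culture and at least 3.70-fold higher in conditioned medium. Lipa, a lysosomal lipase gene that stands nearest to Ifit2, had 286.8 in co-culture, 218.5 in conditioned medium and 194.2 in regular medium, a log2 difference of 0.56 in co-culture. Pank1 and Kif20b on the Ifit1 side differed by -0.45 and -0.75. Around the Ifitm cluster, 4 of 8 flanking genes were measured and none was higher or lower. Pkp3, a desmosome gene, differed by 0.56, Sigirr, a receptor that damps interleukin signalling, by -0.02, B4galnt4 by 0.17 and Pgghg by -0.68. The flanking genes Ch25h, Slc16a12, Htr7, Cox8b, Nlrp6, Ifitm5 and Ifitm6 were below 149.3 on both arrays.

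Beyond the members, all measured genes with a promoter window were split by the response element core, a split chosen after the data were seen. Of 264 genes with it 15.9% were higher in co-culture than in regular medium and 2.27% lower. Of 7448 genes without it 5.26% were higher and 2.71% lower, and the difference between these shares was not tested. For the core of the gamma-activated sequence, 6.2% of 613 genes with it and 5.58% of 7099 genes without it were higher. Of 20 other interferon effectors with a window, 10 held the response element core. These shares describe 1 pair of arrays, and the genes include the interferon lists themselves.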
